A study of Mus musculus with 13 samples.

Results

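The genes described here are 10 pro-apoptotic members of the BCL-2 family, taken from the count tables by symbol out of 23337 gene symbols, in mouse splenic B cells with and without the RNA-degrading enzyme Regnase-1. They are the BH3-only genes Bmf, Bcl2l11 (the gene for Bim), Bbc3 (Puma), Pmaip1 (Noxa), Bad, Bid, Bik and Hrk, and the effector genes Bax and Bak1. BH3-only proteins are sensors of cell damage and of lost survival signals. They bind the survival proteins BCL-2, BCL-XL, MCL-1 and A1 or act on BAX and BAK directly, and BAX and BAK then open the outer mitochondrial membrane and release cytochrome c. In B cells Bim is the BH3-only protein best known for removing autoreactive and surplus cells, and signals from the B cell receptor (BCR) shift the balance between these proteins.

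RNA-seq read counts were available for 13 libraries of naive B cells from spleen, enriched by negative selection with CD43 beads. Deficient cells carried the alleles Regnase-1 f/f with hCD20TamCre, a tamoxifen-dependent recombinase made in B cells, and control cells were Regnase-1 +/+ with the same Cre, so both genotypes carried the Cre. Each genotype was profiled untreated and after 4 h with an anti-IgM F(ab')2 fragment, which crosslinks the BCR. Unstimulated cells gave 4 control and 3 deficient libraries, and stimulated cells gave 3 of each genotype. The ages of the mice and the tamoxifen schedule are not given in the sources used here, and the untreated libraries have no time label, so time in culture and receptor stimulation cannot be told apart.

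Library totals lay between 21407724 and 33244755 counts. On these totals 3 counts, the limit that a count of 0 allows, stood for 0.0902 to 0.140 CPM, the unit of a read count relative to all reads of its library. The levels reported below use totals after scaling between libraries (TMM), so this floor is on a slightly different scale. Zc3h12a, the gene for Regnase-1, was at 121 to 131 CPM in control and 89.2 to 111 CPM in deficient unstimulated libraries, and at 147 to 157 against 92.6 to 113 CPM after stimulation. The exons between the loxP sites are not named in the labels, and the counts are not split by exon, so this level checks the labels only in part. The 9 B cell markers used (Cd79a, Cd79b, Ms4a1, Pax5 and others) had reads in every library, with summed levels of 5254 to 6208 CPM unstimulated and 3122 to 3467 CPM stimulated. Markers of other cells were also present. The 11 myeloid markers used summed to 387, 404, 762 and 723 CPM in the 4 unstimulated control libraries. In the 3 unstimulated deficient libraries they summed to 863, 528 and 419 CPM. After stimulation the myeloid sums were 331 to 544 CPM in control and 417 to 613 CPM in deficient libraries. The 9 neutrophil markers in the tables summed to 426.5 and 296.9 CPM in the unstimulated and stimulated libraries of deficient pair 1, while the other deficient libraries held 41.1 to 70.6 CPM and the controls 26.5 to 402 CPM. The 7 erythroid markers summed to 1365 and 1239 CPM in that pair and to 140 to 799 CPM elsewhere, with 2 of the 7 at 0 in every library. Xist and Y-linked transcripts marked control pair 1 as male and the other controls as female, and deficient pair 1 as female and the other deficient pairs as male. In bulk RNA, fewer cells of a type and less RNA per cell cannot be told apart.

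The upstream sequences of Bmf and Bcl2l11 are shown because they are the BH3-only genes with the highest levels per kb of exon in unstimulated cells and moved in opposite directions with stimulation, and that of Bbc3 because it holds the same motif as Bcl2l11. Each is the 250 bases before a transcription start in RefSeq (GRCm38.p6), read 5′ to 3′ on the gene's own strand. Capitals mark the core of the site for FOXO transcription factors, TGTTTAC, in either orientation.
Bmf, chr2:118549687-118549936, minus strand: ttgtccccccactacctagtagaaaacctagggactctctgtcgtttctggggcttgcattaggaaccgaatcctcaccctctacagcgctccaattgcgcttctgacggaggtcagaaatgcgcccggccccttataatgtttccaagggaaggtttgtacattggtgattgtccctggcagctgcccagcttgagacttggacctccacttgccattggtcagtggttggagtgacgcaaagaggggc
Bcl2l11, chr2:128125788-128126037, plus strand: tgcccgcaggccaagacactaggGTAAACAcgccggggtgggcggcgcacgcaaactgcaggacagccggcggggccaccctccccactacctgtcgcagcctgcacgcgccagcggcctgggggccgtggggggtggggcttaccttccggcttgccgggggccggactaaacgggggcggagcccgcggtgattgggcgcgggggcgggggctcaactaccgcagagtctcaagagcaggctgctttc
Bbc3, chr7:16310011-16310260, plus strand: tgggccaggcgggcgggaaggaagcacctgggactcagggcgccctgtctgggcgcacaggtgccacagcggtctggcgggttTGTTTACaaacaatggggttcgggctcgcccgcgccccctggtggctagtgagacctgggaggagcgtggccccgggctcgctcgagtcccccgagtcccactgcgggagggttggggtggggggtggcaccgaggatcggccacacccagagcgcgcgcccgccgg
FOXO factors are kept out of the nucleus by signalling through PI3K and AKT and are known activators of several BH3-only genes. In a search of 14 starts of Bmf, Bcl2l11, Bbc3, Bad, Bid, Hrk, Bax and Bak1 (Pmaip1 and Bik were not searched), in windows from 250 bases before to 50 after each start, the core occurred at 1 start of Bcl2l11 (227 bases before it) and 1 start of Bbc3 (167 bases before it). It occurred in 3.65% of 32851 RefSeq promoters of that length, and was found at none of the 3 Bmf starts. A kappaB motif (GGGNNTTCC, 5.82% of all promoters) was found at 1 start, of Bbc3. None of the 14 starts held the other motifs searched on both strands: AP-1 (TGANTCA, 7.81%), cyclic AMP response element (TGACGTCA, 1.79%), TATA box (TATAAA, 13.6%), ETS (ACCGGAAGT, 1.096%) and EGR (GCGTGGGCG, 0.612%). A match describes letters in these windows and says nothing about binding.

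Loss of Regnase-1 went with a higher level of a single BH3-only gene, Bmf, in both states. Bmf encodes a BH3-only protein held on the cytoskeleton by dynein light chain and lies on chromosome 2, 118528757 to 118549687 (minus strand, mm10). In unstimulated cells Bmf was at 226, 222, 218 and 179 CPM in the 4 control libraries and at 353, 372 and 412 CPM in the 3 deficient libraries. After stimulation the control libraries stood at 61.5, 48.3 and 51.4 CPM and the deficient ones at 92.4, 93.2 and 107 CPM. Every deficient library lay above every control library of its state. Means ± SD were 211 ± 21.7 (n = 4) against 379 ± 30.2 CPM (n = 3) unstimulated, a 1.79-fold difference, and 53.7 ± 6.89 against 97.5 ± 8.06 CPM (n = 3 each) stimulated, a 1.81-fold difference. By edgeR's quasi-likelihood test, adjusted by Benjamini-Hochberg over 13574 genes, the log2 differences were 0.84 ± 0.09 (SE; adjusted p = 0.00104) and 0.86 ± 0.11 (adjusted p = 0.000564). Without the 2 libraries of deficient pair 1, which carried the most neutrophil and erythroid RNA among the deficient libraries, the differences were 0.89 (adjusted p = 0.00623) and 0.90 (adjusted p = 0.00232).

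**Figure D1:**
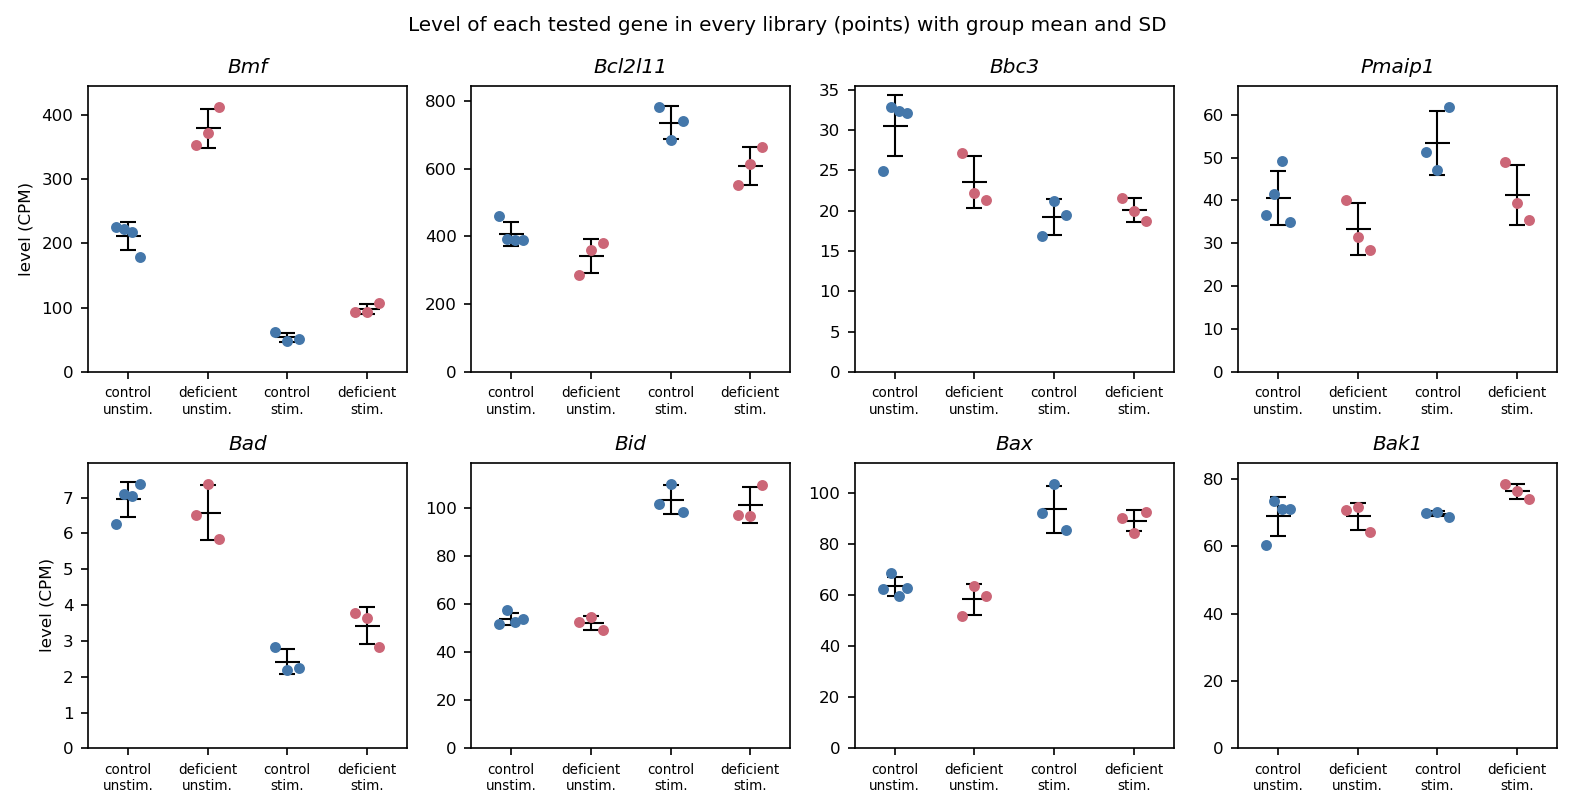
Level of the 8 tested genes in each library, in TMM-normalized CPM (each vertical axis starts at 0 and has its own scale), by group, with points for libraries in blue (control) and red (deficient) and bars for the mean and SD. Bmf lay at 353 to 412 CPM in deficient and 179 to 226 CPM in control unstimulated libraries. Bcl2l11, Bid and Bax stood higher in all stimulated than in all unstimulated libraries. Of all genes tested, 28.5% were called higher with stimulation in control and 28.3% in deficient cells.

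Of the 10 genes, 8 passed the filter on low counts; Bik and Hrk did not. Bmf was the only member of the 8 called in deficient against control cells, with 1 called higher in each state. Among all 13574 genes tested, 0.125% were called higher and 0.324% in either direction in unstimulated cells, and 0.751% and 2.01% in stimulated cells. Higher and lower calls over all genes were 17 and 27 in unstimulated cells, 21 and 20 with DESeq2's size factors, and 36 and 34 with upper-quartile factors. The median log2 difference of the 8 genes was -0.10 unstimulated and 0.02 stimulated, against -0.02 and 0.0028 over all genes. Deficient and control libraries did not overlap for 2 of the 8 genes unstimulated, Bmf and Bcl2l11, and for 4 stimulated, Bmf, Bcl2l11, Bad and Bak1, while 8.72% and 17.8% of all genes tested showed no overlap. Bmf had the fifth-largest rise of the 17 genes called higher in unstimulated cells.

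**Figure D2:**
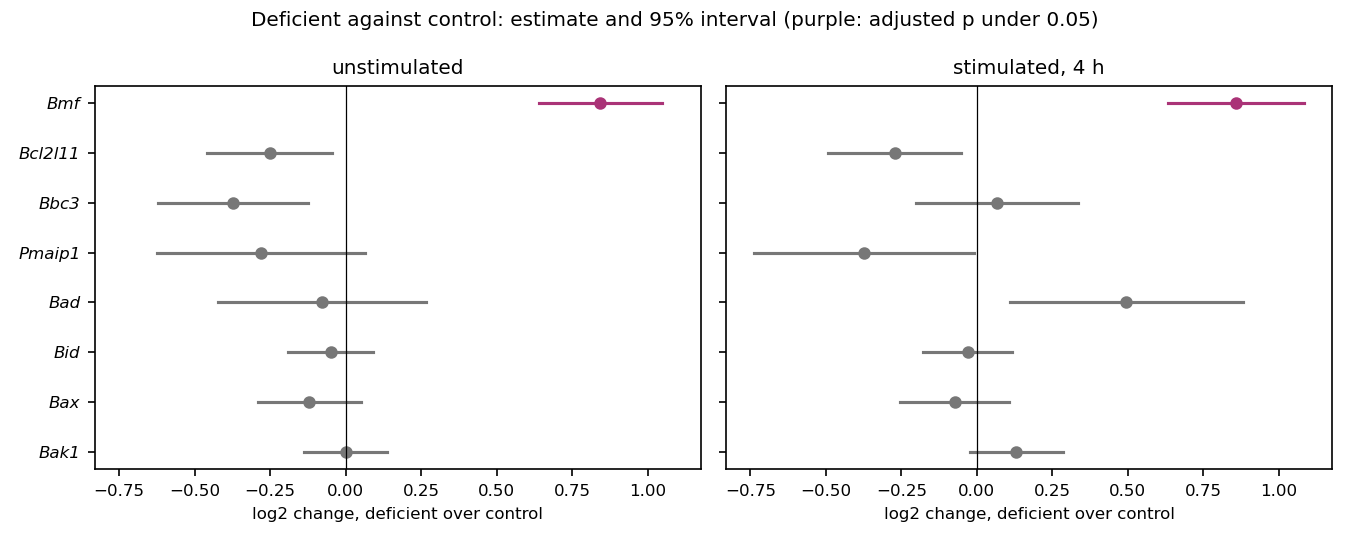
Log2 difference of deficient over control cells for each of the 8 tested genes (horizontal axis), unstimulated on the left and stimulated on the right, with points for estimates, lines for 95% intervals, and purple for an adjusted p under 0.05. Bmf stands at 0.84 and 0.86, and the estimates of the other genes lie between -0.37 and 0.50.

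Bcl2l11, whose protein Bim can engage all the survival proteins of the family, was lower in every deficient than in every control library of the same state, but the difference did not pass the test. It lies on chromosome 2, 128126038 to 128162547 (plus strand). Unstimulated levels were 459, 391, 388 and 388 CPM for control against 286, 360 and 379 CPM for deficient libraries. Stimulated levels were 781, 684 and 739 CPM for control against 551, 613 and 663 CPM for deficient libraries. The lowest value of each state was that of deficient pair 1 and the highest that of control pair 1. Log2 differences were -0.25 ± 0.10 (SE; edgeR adjusted p = 0.468) and -0.27 ± 0.10 (adjusted p = 0.274). They were -0.14 and -0.19 without deficient pair 1 (adjusted p = 0.573 and 0.264). With the sex of each library as a term they were -0.36 and -0.35 and passed the threshold (adjusted p = 0.00462 and 0.00203), in a fit that called 198 genes unstimulated and 511 stimulated, against 44 and 273 without the term. Control pair 1 was the only male control and deficient pair 1 the only female deficient pair, so sex and pair cannot be told apart within a genotype for these libraries.

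Bbc3 and Pmaip1, which p53 is known to induce, did not pass the test between genotypes in either state. Bbc3 (chromosome 7, 16308393 to 16318205) was at 24.9, 32.9, 32.3 and 32.1 CPM in unstimulated control libraries, against 27.2, 22.2 and 21.3 CPM without Regnase-1, a log2 difference of -0.37 ± 0.12 (SE; edgeR adjusted p = 0.317). Stimulated levels of Bbc3 were 16.9, 21.2 and 19.5 against 21.6, 19.97 and 18.7 CPM, a difference of 0.07 ± 0.13 (adjusted p = 0.912). The unstimulated ranges overlapped only through control library 1. Pmaip1 was at 36.7, 41.4, 49.1 and 34.9 CPM in unstimulated control libraries, against 40.1, 31.5 and 28.4 CPM in deficient ones, and at 51.3, 47.2 and 61.8 against 48.9, 39.3 and 35.4 CPM after stimulation. Its differences were -0.28 ± 0.16 (adjusted p = 0.677) and -0.37 ± 0.17 (adjusted p = 0.401), with overlapping groups in both states.

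Bad, whose protein is inactivated by phosphorylation downstream of survival signals, did not pass the test between genotypes. Bad (chromosome 19, 6941861 to 6951899) was at 6.27, 7.11, 7.03 and 7.39 CPM in unstimulated control libraries, against 6.51, 7.38 and 5.84 CPM in deficient ones. After stimulation it was at 2.83, 2.19 and 2.25 CPM in control libraries, against 3.79, 3.65 and 2.83 CPM; the lowest deficient value, 2.831 CPM, was just above the highest control value, 2.827 CPM. The stimulated difference of 0.50 ± 0.18 on the log2 scale did not pass the test (edgeR adjusted p = 0.248).

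Bid, which caspase-8 cuts to link death receptors to mitochondria, and the effectors Bax and Bak1 did not pass the test between genotypes in either state. Log2 differences of deficient over control cells were -0.05 ± 0.07 unstimulated and -0.03 ± 0.07 stimulated for Bid (95% intervals -0.19 to 0.09 and -0.18 to 0.12). For Bax they were -0.12 ± 0.08 and -0.07 ± 0.08, with intervals of -0.29 to 0.05 and -0.25 to 0.11. Mean Bak1 was 68.9 ± 5.85 CPM in control and 68.9 ± 4.07 CPM in deficient unstimulated cells. Stimulated Bak1 was at 69.8, 70.3 and 68.8 CPM for control against 78.6, 76.3 and 73.9 CPM for deficient libraries, which did not overlap, at a log2 difference of 0.13 ± 0.07 (edgeR adjusted p = 0.517). Bik and Hrk were at or near the floor, between 0 and 0.291 CPM and between 0 and 0.167 CPM. In control stimulated cells Hrk had 0 counts in all 3 libraries, and in the other groups a total of 2 to 4.

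Members moved in opposite directions between unstimulated and stimulated cells. Of the 8 genes tested in control cells, 4 rose (Bcl2l11, Bid, Bax and Pmaip1), 3 fell (Bmf, Bad and Bbc3) and Bak1 did not pass the test. In deficient cells 3 rose (Bcl2l11, Bid and Bax), 2 fell (Bmf and Bad), and Bbc3, Pmaip1 and Bak1 did not pass. With the same-numbered pairs as a block all 8 were called in deficient cells, in a fit that called 65.6% of all genes there. The block left the calls in control cells as they were. The count in deficient cells thus depends on whether the fit takes the pairs into account, and the main fit does not. Over all genes tested, 28.5% rose and 31.8% fell in control cells and 28.3% rose and 29.6% fell in deficient cells, so calls of either sign were common. The median log2 change of the 8 genes was 0.21 in control and 0.22 in deficient cells, against -0.13 and -0.11 over all genes. The 2 responses are each read against their own unstimulated libraries.

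Bmf had the largest change of the 8 genes in both genotypes. It fell 3.93-fold in control cells (log2 change -1.97 ± 0.10 SE, edgeR adjusted p = 5.1e-10) and 3.89-fold in deficient cells (-1.96 ± 0.11, adjusted p = 9.9e-10). Bmf in stimulated deficient libraries, at 92.4 to 107 CPM, lay below its level in unstimulated control libraries. In same-numbered pairs of libraries the log2 changes were -1.88, -2.198 and -2.08 for the 3 control pairs, against -1.93, -1.99 and -1.95 for the deficient pairs.

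Bcl2l11 rose 1.81-fold in control cells (log2 change 0.85 ± 0.10, edgeR adjusted p = 1.3e-06) and 1.78-fold in deficient cells (0.83 ± 0.10, adjusted p = 4.7e-06). Bid went from 51.8 to 57.4 CPM in control unstimulated libraries to 98.2 to 110 CPM after stimulation, and from 49.0 to 54.6 to 96.7 to 109.5 CPM in deficient cells. Its log2 changes were 0.94 ± 0.06 (edgeR adjusted p = 3.4e-09) and 0.96 ± 0.07 (adjusted p = 8.6e-09). Bax went from 59.9 to 68.7 CPM to 85.6 to 103.8 CPM in control and from 51.9 to 63.5 CPM to 84.6 to 92.7 CPM in deficient cells, at log2 changes of 0.56 ± 0.08 (edgeR adjusted p = 1.2e-05) and 0.61 ± 0.09 (adjusted p = 1.3e-05). Stimulated and unstimulated libraries did not overlap for 6 of the 8 genes in each genotype, these 3 among them. The share of all genes without overlap is not given here, while 60.3% and 57.9% were called in control and deficient cells.

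Bad fell in both genotypes, with log2 changes of -1.52 ± 0.17 in control (edgeR adjusted p = 1.2e-06) and -0.94 ± 0.18 in deficient cells (adjusted p = 0.000245). Gpr137 overlaps Bad by 620 bases on the opposite strand, and its mean level went from 13.4 to 5.03 CPM in control and from 13.1 to 5.11 CPM in deficient cells; the strand setting of the counting is not stated, and the part of shared reads in the fall of Bad was not tested. Bbc3 fell in control cells (-0.67 ± 0.12, adjusted p = 0.000127). In deficient cells its change was -0.23 ± 0.13 (adjusted p = 0.129), which passed with the same-numbered pairs as a block (adjusted p = 0.0278) and with sex as a term (adjusted p = 0.0224). Pmaip1 rose in control cells by 0.40 ± 0.16 (adjusted p = 0.0424), a call lost in 9 of 23 alternatives. It was lost with upper-quartile factors (adjusted p = 0.123), without a filter (0.0676), and without control stimulated library 1 or 3, control unstimulated library 1, 2 or 4, deficient stimulated library 2 or deficient unstimulated library 2 (adjusted p up to 0.178). Its change in deficient cells was 0.30 ± 0.17 (adjusted p = 0.144), and 0.31 with the pairs as a block (adjusted p = 0.000804). All 6 pairs had a positive change of Pmaip1, between 0.19 and 0.48. Bak1 changed by 0.01 ± 0.07 in control cells (95% interval -0.13 to 0.16) and by 0.15 ± 0.07 in deficient cells (adjusted p = 0.0952). The Bak1 change in deficient cells passed with the block (adjusted p = 0.0427), with DESeq2's size factors in edgeR (0.0448), in DESeq2 (0.0485), in limma on the deposited log2 values (0.0413) and without control unstimulated library 1 (0.0426). The block called 65.6% of all genes in the response of deficient cells, against 57.9% without it.

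**Figure D3:**
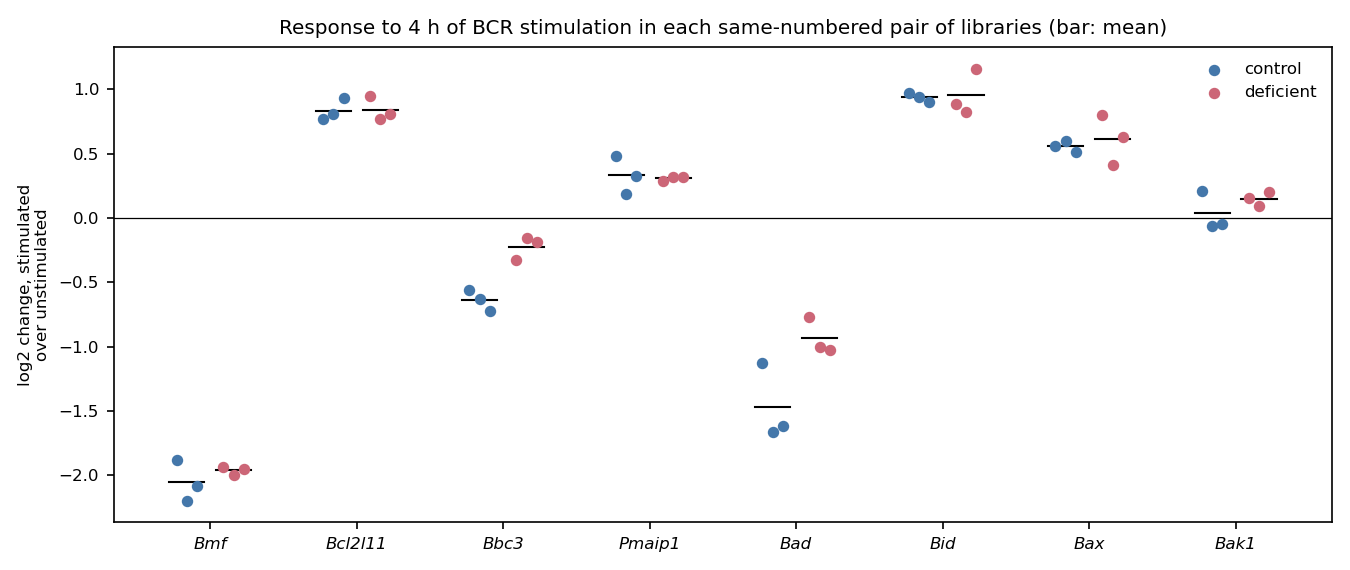
Log2 change from unstimulated to stimulated in each same-numbered pair of libraries (vertical axis) for the 8 tested genes, with 3 control pairs in blue, 3 deficient pairs in red and a black bar for each mean. Bmf fell in all 6 pairs, with log2 changes between -2.198 and -1.88. The difference between the responses of the genotypes did not pass the test for any of the 8 genes.

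The difference between the responses of the genotypes did not pass the test for any of the 8 genes, and among all genes 0.00737%, a single gene with a higher response, was called. With the pairs as a block, which the numbers allow within a genotype, 48 genes were called higher and 20 lower, none of them among the 8. Higher and lower calls were 23 and 15 in DESeq2, 13 and 6 with sex as a term and 8 and 4 with upper-quartile factors. The smallest p of the 8 were those of Bbc3 and Bad, which ranked 216 and 339 among the 13574 genes tested. DESeq2 and limma on the deposited log2 values also called 0 of the 8. For Bmf the difference of the log2 responses was 0.02 ± 0.14 (95% interval -0.29 to 0.32). For Bbc3 the fall was smaller in deficient cells, with pair values of -0.56, -0.63 and -0.73 for control against -0.33, -0.15 and -0.18 for deficient cells. The difference was 0.44 ± 0.17 (unadjusted p = 0.0217, edgeR adjusted p = 0.9997). For Bad the pair values were -1.13, -1.67 and -1.61 for control against -0.77, -1.002 and -1.03 for deficient cells, a difference of 0.57 ± 0.24 (unadjusted p = 0.0321, adjusted p = 0.9997). With the pairs as a block, the adjusted p was 0.219 for Bbc3 and 0.662 for Bad.

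Levels of different genes were set side by side per kb of annotated exon. In control unstimulated cells Bcl2l11 stood first at 50.6 CPM per kb, followed by Bax at 40.3 and Bmf at 40.2, whose ranges over libraries overlapped, Bak1 at 28.6, and Bid, Pmaip1 and Bbc3 at 15.2, 14.8 and 14.4, which overlapped their neighbours. Bad was at 2.72 CPM per kb. In deficient unstimulated cells Bmf was first at 72.1 CPM per kb and did not overlap Bcl2l11, the next at 42.6, which overlapped Bax at 37.1. After stimulation Bcl2l11 was first in both genotypes, at 91.5 in control and 75.8 CPM per kb in deficient cells. Bmf was then in place 6 at 10.2 CPM per kb in control cells, overlapping Bbc3 at 9.05, and in place 5 at 18.6 in deficient cells, overlapping Pmaip1 at 15.1.

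As a share of the summed level per kb of the 8 BH3-only genes, Bmf made up 29.1% ± 1.70 (SD, n = 4) in control unstimulated and 46.4% ± 1.67 (n = 3) in deficient unstimulated libraries, and 6.36% ± 0.61 and 12.4% ± 0.45 after stimulation. Bcl2l11 made up 36.7% ± 2.73, 27.3% ± 2.77, 57.0% ± 1.66 and 50.9% ± 2.58 in the same order. The ratio of Bmf to Bcl2l11 was 0.795 ± 0.079 in control and 1.71 ± 0.16 in deficient unstimulated cells, and 0.111 ± 0.008 and 0.245 ± 0.012 after stimulation. The sum itself moved less, at 138 ± 6.48, 155 ± 7.30, 160 ± 6.16 and 149 ± 7.10 CPM per kb. With the length of the longest transcript in place of all annotated exons, the ratio in unstimulated cells was 0.565 in control and 1.21 in deficient cells.

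**Figure D4:**
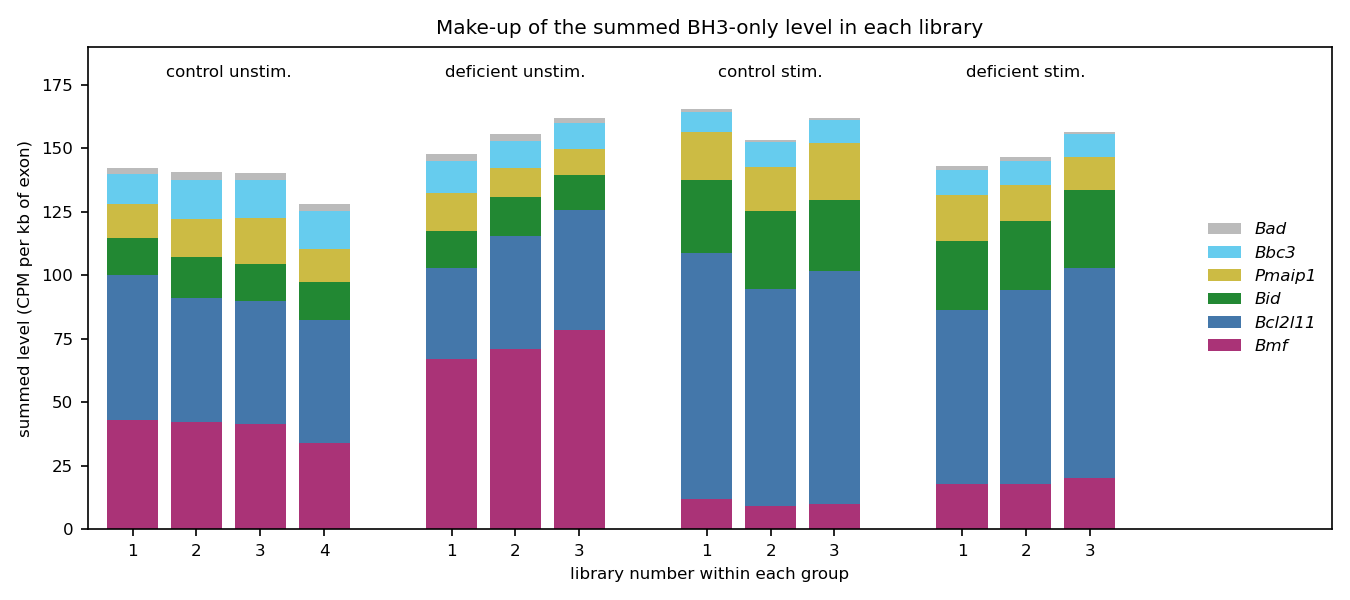
Summed level of the BH3-only genes in each library (Bik and Hrk, at or near 0, are not drawn) (vertical axis, CPM per kb of exon), by group and library number, with colours for genes. The sum stands between 128 and 165.5 CPM per kb in all 13 libraries, while the Bmf segment at the bottom is tallest in the deficient unstimulated libraries.

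Genes whose pattern over the 13 libraries lay nearest that of Bmf were Ccdc69, Ly6d and Il10ra, by the root mean square difference of centred log2 levels (0.29, 0.30 and 0.31 over 13 libraries, out of 9082 candidates; Bmf itself varied by 1.05). These genes were chosen for that likeness in the same libraries, so their values are a description. Ly6d, a surface antigen of the lymphoid lineage, was at mean levels of 310 and 366 CPM unstimulated and 86.7 and 128.6 CPM stimulated in control and deficient cells. Il10ra, the IL-10 receptor subunit gene, was at 266 and 370 CPM unstimulated and 58.3 and 82.3 CPM stimulated, and Ccdc69 at 8.03 and 11.5 and at 1.74 and 2.99 CPM.

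Among the survival members of the family, none of the 8 tested of 9 was called between genotypes in unstimulated cells. Bcl2 had the smallest p there, at a log2 difference of 0.47 (edgeR adjusted p = 0.115). In stimulated cells 1 was called: Bcl2, higher in deficient than in control cells by 1.17 on the log2 scale (edgeR adjusted p = 8.2e-05). With stimulation 5 of the 8 rose and 3 fell in control cells (median log2 change 1.98). In deficient cells 5 rose and 2 fell (median 1.68). Over all genes tested, 28.5% rose and 31.8% fell in control cells, and 28.3% rose and 29.6% fell in deficient cells. The genes that fell in control cells were Bcl2 (-0.97), Mcl1 (-0.36) and Bcl2l2 (-0.66). Mcl1 (-0.35) and Bcl2l2 (-0.54) also fell in deficient cells, where the change of Bcl2 (-0.28) was not called. Bcl2l1, the gene for BCL-XL, rose by 2.99 in control and 2.69 in deficient cells. The A1 genes Bcl2a1d and Bcl2a1c rose by 2.78 and 2.63 in control and by 2.33 and 1.97 in deficient cells; the A1 genes are near-identical copies, so reads may be split among them. Of the 9 partners that hold BH3-only proteins in the cytoplasm (dynein light chains for Bmf and Bim, 14-3-3 proteins for Bad), 1 was called between genotypes, the 14-3-3 sigma gene Sfn, lower in stimulated deficient cells (log2 -0.52, adjusted p = 0.0460). With stimulation 3 of the 9 rose and 4 fell in each genotype, among them Ywhag, up by 0.87 in control and 0.92 in deficient cells.

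Of the apoptosome and caspase genes, a list that also holds caspase inhibitors and mitochondrial channel genes, 0 of 19 were called between genotypes in either state. With 0.324% and 2.01% of all genes called, a list of this size holds few or no calls at the background share. In control cells 5 of these rose and 11 fell with stimulation (median log2 change -0.24), and in deficient cells 4 rose and 11 fell (median -0.29), where 60.3% and 57.9% of all genes were called in either direction. By direction, 28.5% of all genes rose and 31.8% fell in control cells, and 28.3% rose and 29.6% fell in deficient cells. Cycs, the gene for cytochrome c, rose by 1.26 in control and 1.31 in deficient cells. Casp9, the initiator caspase of the apoptosome, fell by 2.01 in both, while Casp2 had log2 changes of -0.95 and -1.01. Of 12 death receptor genes, 3 rose and 6 fell in each genotype (medians -0.30 and -0.32), with Cflar, the gene for the caspase-8 inhibitor c-FLIP, up by 1.97 in control and 1.95 in deficient cells. Of 9 other BCL-2 family genes tested, 1 rose and 4 fell in control cells and 1 rose and 3 fell in deficient cells, and the smallest p was that of the mitophagy receptor gene Bnip3l, with log2 changes of -1.14 and -1.06.

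Of the listed FOXO and stress-response genes and the p53 and p53 target genes, 0 were called between genotypes, which for lists of this size is near the background share. Of 9 FOXO and stress-response genes, 5 rose and 3 fell in each genotype (medians 0.41 and 0.44). Foxo1 had log2 changes of -1.46 in control and -1.41 in deficient cells, while Cited2 rose by 1.88 and 2.03 and Trib3 by 1.12 and 1.18. Of 18 tested p53 and p53 target genes, 2 rose and 9 fell in control cells and 2 rose and 7 fell in deficient cells (medians -0.23 and -0.28). Over all genes, 28.5% rose and 31.8% fell in control cells (median -0.13). In deficient cells 28.3% of all genes rose and 29.6% fell (median -0.11). Aen, a p53-induced nuclease gene, rose by 1.66 and 1.70, and Sesn1 had log2 changes of -1.63 and -1.51. No gene of these 7 lists was called in the difference of the responses.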

How the data were processed

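The data are 13 RNA-seq libraries of mouse splenic B cells. For each library the authors deposited a table of read counts by gene symbol and a table of log2 values; the submitters' processing notes name TopHat, HTSeq, DESeq2 and the mm10 build, with no versions. Annotation, strand setting, multi-mapping rule and log2 transformation are not given in the sources used here, so overlapping genes are uncertain: Bak1 with Ggnbp1, Bid with Bcl2l13, Bad with Gpr137 and Bax with Gm45808. Libraries are numbered within groups, but no label states that they come from separate animals, and p-values then measure only the spread between these samples. Replicates all differed by more than sampling noise (chi-square per gene 8.25 to 36.3).

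The test on the counts was that of edgeR 4.0.16, run in R 4.3.3 (filterByExpr with minimum count 10, TMM factors, robust quasi-likelihood fit of all 13 libraries by group). It covered 13574 genes with 9 residual degrees of freedom. The procedure was first run on simulated counts of independent libraries, to see whether changes set in advance were found. That run held no pairs of libraries and could not measure the rate of false calls. Standard errors are the log2 change divided by the root of F, and a call means a Benjamini-Hochberg adjusted p under 0.05 over all genes tested. Levels are given as CPM after TMM scaling; lengths and coordinates come from GENCODE vM21. Intervals and floors cover counting error only where they rest on counts of a single library. Members, lists, motifs and tests were chosen with earlier results of these data known. From each list at most 3 called genes with the smallest p were named per comparison. Survival genes that fell with stimulation were named in addition. For Bmf the 3 nearest genes whose mean log2 CPM reached 2 were named, leaving out predicted gene models and receptor segments. A single marker of the B cell list is not reported here and was left out of its sums.

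Same-numbered libraries of a genotype deviated together from their group means (control r = 0.73, 0.49 and 0.57; deficient r = 0.83, 0.76 and 0.62; 9658 genes), so the number paired the states within a genotype. Alternatives were DESeq2 size factors, upper-quartile factors, DESeq2 1.42.0, limma 3.58.1 on the deposited log2 values, no filter, a stricter filter (1 CPM in 3 libraries), sex as a term, the replicate block, a fit of only the groups compared, and leaving out each library or both libraries of deficient pair 1. For responses the block was the pair within a genotype. Between genotypes it was the library number, which no label pairs across genotypes. Unstimulated control and deficient libraries of the same number had r = -0.59, -0.06 and -0.38.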

Additional observations from a re-analysis of the deposited data

Results flagged for a closer look

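In control unstimulated cells, library 1 stood apart from the other 3 for a pair of genes. For Bcl2l11 it was the highest, at 459 against 388 to 391 CPM, and the gap to its neighbour was 0.948 of the group's range, above Dixon's critical value at 95% for 4 samples. For Bbc3 it was the lowest, at 24.9 against 32.1 to 32.9 CPM, a gap of 0.902 of the range. Chance flags about 1 in 20 groups. This library was the only male unstimulated control by its Xist and Y-linked transcripts, and its neutrophil markers summed to 34.3 CPM, the lowest of the 4; their part in the gaps was not tested. Without this library the unstimulated difference between deficient and control cells was -0.19 for Bcl2l11 and -0.46 for Bbc3 on the log2 scale, and neither passed the test.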

How the results depend on the processing

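Bmf was called in all 4 comparisons between groups under each of the 23 alternatives, with adjusted p up to 0.0112 between genotypes in unstimulated cells. Counts of members called moved by over 1.5 times in 3 cases: with sex as a term 2 were called between genotypes unstimulated and 2 stimulated (Bmf and Bcl2l11), and with the replicate block all 8 were called in the response of deficient cells, against 5. Calls over all genes rose too, to 1.46% and 3.76% with sex as a term and to 65.6% with the block. The replicate block changed no other call of a member. Between genotypes it joined control and deficient libraries that share only a number, so it is no check of pairing there. Of 912 values of single genes, 842 kept direction and side of the threshold, 9 lost the call, all for the response of Pmaip1 in control cells, 11 gained it and 50 changed sign. In the response of deficient cells Bak1 gained the call without control unstimulated library 1 (adjusted p = 0.0426) and Pmaip1 without deficient unstimulated library 1 (adjusted p = 0.0395). None of the 50 was called in either fit, and the cause was not tested. Leaving out a library gave log2 ranges of -0.058 to 0.047 for unstimulated Bak1 and, stimulated, -0.136 to 0.0045 for Bax, -0.020 to 0.143 for Bbc3 and -0.093 to 0.017 for Bid, between genotypes. It gave -0.045 to 0.061 for the control response of Bak1. For the difference of responses it gave -0.033 to 0.126 for Bax, -0.132 to 0.061 for Bcl2l11, -0.042 to 0.067 for Bid, -0.055 to 0.125 for Bmf and -0.251 to 0.062 for Pmaip1. Without deficient pair 1 unstimulated Bak1 was -0.024, stimulated Bid 0.0080 and the difference of responses of Bax -0.029. Upper-quartile factors gave -0.057 for the control response of Bak1. For the difference of responses, Bcl2l11 was 0.0018 with sex as a term and 0.0057 with the replicate block. With DESeq2 factors, upper-quartile factors, limma and DESeq2 it was -0.0158, -0.00442, -0.0145 and -0.0152 for Bid and -0.0178, -0.00648, -0.0217 and -0.0163 for Bmf. The scalings moved the median change of all genes by less than 0.1. Only the groups compared was not run for the difference of responses, where all groups enter. At these depths levels under about 0.140 CPM, the highest floor on unscaled totals, cannot show a difference, as in most libraries for Bik and Hrk.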
